A study of Strongylocentrotus purpuratus with 9 samples.

Results

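The narrow enhancer RNA (eRNA) peaks of the purple sea urchin embryo were the 980 peaks of at most 150 bp, out of 18076 peaks in the whole list. They were chosen by 2 measured values, the width of a peak and its score, with the score at 3 or more and below 44, which is the 95th percentile of the score over all peaks. Narrow peaks made up 5.42% of all peaks and 10.7% of the 9128 peaks in this score range. They were set beside the 4908 peaks of 200 to 400 bp in the same score range, and the remaining 3240 peaks of the range had other widths. The peaks come from CAGE-seq (Cap Analysis of Gene Expression), a method that reads the 5′ ends of capped RNAs, applied to total RNA of whole *S. purpuratus* embryos. Embryos were harvested at 9 stages, from 0 hr postfertilization (hpf), directly after fertilization, to 48 hpf at intervals of 6 hr, with 1 library per stage and the embryos drawn from 2 cultures. The labels name no treatment, mutant or injected reagent, and do not say which library came from which culture. The deposited list is the union of all stages. Each peak has coordinates and a score, and none of its values belongs to a single stage or library.

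Active enhancers are transcribed by RNA polymerase II, usually from a pair of start sites that point away from each other, and the short, unstable products are the eRNAs. The divergent start sites flank a stretch of open DNA on which transcription factors bind, and nucleosomes lie on either side of it. In a list built from divergent start sites, a narrow peak would have start sites close together and each spread over few bases. A width of 150 bp is about the length of DNA wrapped around a single nucleosome. How the ends of the intervals were set and how the score was computed are not given in the sources used here, so both are used as deposited. No genome of these assemblies was used here, and the peaks carry no gene names.

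Width and score chose the narrow peaks and are given as a description. The median width was 104 bp, with quartiles of 70 and 128 bp, and the narrowest peak measured 3 bp. Most narrow peaks lay in the upper part of their range, since 520 of the 980 (53.1%) were wider than 100 bp and 135 (13.8%) measured 50 bp or less. In steps of 25 bp, the share of the narrow peaks increased from 4.18% in the narrowest step to 9.59, 15.0, 18.2, 26.0 and 27.0% in the widest. The plot of widths, in bins of 10 bp, shows counts of 103 to 113 peaks from 111 to 160 bp, on both sides of the limit, and larger counts in the bins from 161 to 200 bp. Just inside the limit, 8 peaks in the score range measured 150 bp and 10 measured 149 bp, and just outside it 7 measured 151 bp and 9 measured 152 bp. The limit of 150 bp thus lay in a stretch of like counts and not in a gap between 2 kinds of peaks. The peaks of 200 to 400 bp had a median width of 321 bp, and the number of peaks in a bin of 10 bp was 382 from 391 to 400 bp and 261 from 401 to 410 bp.

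**Figure D1:**
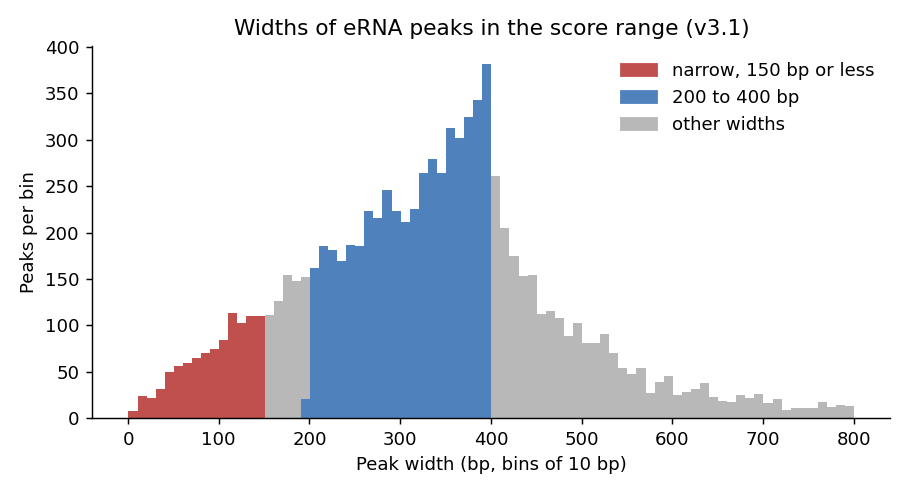
Number of eRNA peaks in each bin of 10 bp of width (x axis, bp) in the score range, v3.1 list, with narrow peaks, peaks of 200 to 400 bp and other widths in 3 colors. The 980 narrow peaks form the lower end of a distribution that climbs, with a level stretch from 111 to 160 bp, to 382 peaks at 391 to 400 bp, and 113 peaks wider than 800 bp are not drawn.

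Narrow peaks had low scores. Their median score was 4 (quartiles 3 and 6), and 406 of the 980 (41.4%) had the lowest score allowed, 3. A score of 10 or more was found for 127 narrow peaks (13.0%), and a score of 20 or more for 27 (2.76%). Among the peaks of 200 to 400 bp, the median score was 5 (quartiles 3 and 8), 30.1% had a score of 3 and 21.0% had a score of 10 or more. Across the whole list, the share of peaks of at most 150 bp was 21.0% at a score of 2, 16.6% at 3, 12.6% at 4 to 5, 8.50% at 6 to 9, 6.45% at 10 to 19 and 2.77% at 20 to 43. Above the score range, at 44 or more, it was 2.50%, so that each higher score class held a smaller share of peaks of this width. The intervals overlapped for 6 to 9 and 10 to 19 (7.33 to 9.84% and 5.33 to 7.78%). They also overlapped for 20 to 43 and 44 or more (1.91 to 4.01% and 1.67 to 3.72%). The median width of all peaks in these classes went from 265 bp at a score of 2 to 473 bp at 44 or more.

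**Figure D2:**
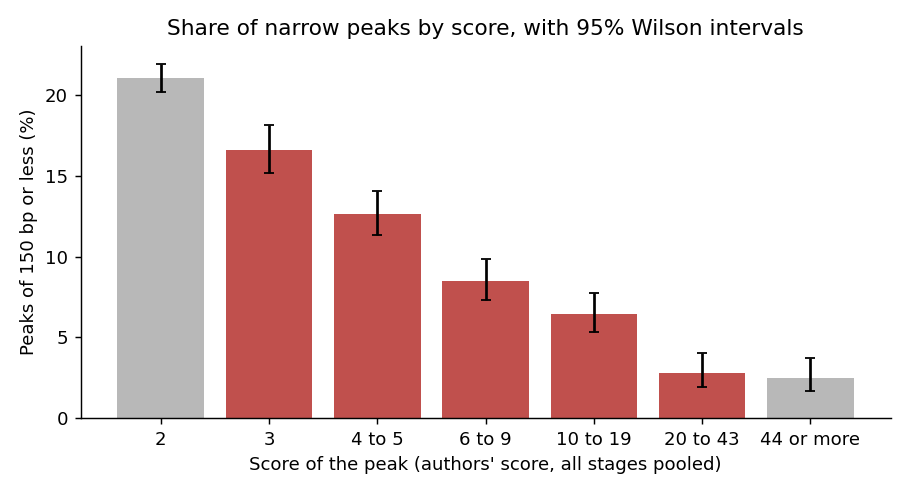
Percentage of eRNA peaks of at most 150 bp (y axis) in each class of score (x axis), with 95% Wilson intervals as error bars; red bars are the score range of the narrow peaks and gray bars lie outside it. The share goes from 21.0% at a score of 2 to 2.50% at 44 or more.

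The score limits removed most peaks of this width. Of 2692 peaks of at most 150 bp, 1689 (62.7%) had a score of 2 and 23 (0.854%) had a score of 44 or more. Just inside the upper limit, the highest scores of narrow peaks were 41, 40 and 40, and just outside it 1 peak had a score of 44 and 2 had 46. The median width was 95 bp for those with a score of 2, 104 bp for the narrow peaks described here and 117 bp for the 23 with the highest scores. The 10 highest-scoring narrow peaks ran from a score of 30 to 41, and with a tie for the last place 11 peaks had a score of 30 or more. The first was Scaffold136:694917-695019 (v3.1, 103 bp, score 41), which lay 69616 bp from its nearest neighbor. Scaffold370:95838-95984 (score 40) lay 48712 bp from the nearest peak, and Scaffold848:130598-130662 (65 bp, score 33) lay 64959 bp from it. Scaffold249:635171-635261 (91 bp, score 35) and Scaffold544:702443-702554 (112 bp, score 34) had gaps of 24208 and 3135 bp. Scaffold1531:125807-125942 (score 40), Scaffold4254:16435-16550 (score 39) and Scaffold3387:29291-29361 (score 33), were the single peak of their scaffold. At the other end were Scaffold1689:184062-184136 (75 bp, score 35), only 622 bp from a peak of 439 bp with a score of 12, and Scaffold1530:116310-116443 (134 bp, score 30), which had a peak of 310 bp at 706 bp. Scaffold9:72262-72399 (138 bp), tied with the latter at a score of 30, lay 57822 bp from its nearest neighbor. High-scoring narrow peaks were thus found both far from and close to other peaks.

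The narrowest peaks were not those with the highest scores. Scaffold1917:4991-4993 spanned 3 bp with a score of 8, and the peak nearest to it, of 277 bp and score 2, was 2695 bp away. Scaffold311:130543-130547 (5 bp, score 4) and Scaffold2005:18377-18381 (5 bp, score 3) came next, followed by Scaffold86:1112371-1112376 (6 bp, score 7) and Scaffold156:76313-76318 (6 bp, score 3). At the upper limit of width, 8 narrow peaks measured 150 bp, of which the 5 with the highest scores are named. Scaffold116:283601-283750 had a score of 18 and Scaffold807:252446-252595 a score of 17. Scaffold1896:285595-285744, Scaffold222:506390-506539 and Scaffold2916:17495-17644, had a score of 4, and the other 3 had a score of 3. The scores of the 5 narrowest peaks ran from 3 to 8, beside a median of 4 and quartiles of 3 and 6 for all narrow peaks.

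Spacing to other peaks was not used to choose the narrow peaks. It was measured as the gap in bp between the edges of a peak and those of the nearest other peak, of any width or score, on the same scaffold. The median gap was 7625 bp for the 890 narrow peaks with a neighbor on their scaffold (95% binomial interval of the median 6034 to 9087 bp) and 5314 bp for 4640 peaks of 200 to 400 bp (4998 to 5667 bp), so that narrow peaks stood 1.43 times as far from other peaks. The quartiles of the gap were 1742 and 23884 bp for narrow peaks and 1324 and 19082 bp for the wider ones, and the 2 distributions overlapped over nearly their whole range. A neighbor within 1 kb was found for 161 of 980 narrow peaks (16.4%, Wilson 95% interval 14.2 to 18.9%) and for 19.5% of the wider peaks (18.5 to 20.7%). The intervals of these 2 shares overlapped. Within 10 kb the shares were 50.2% (47.1 to 53.3%) and 58.7% (57.3 to 60.1%). Of the peaks with a neighbor, 97 of 890 narrow peaks (10.9%) and 9.27% of the 4640 wider peaks had a gap of more than 50 kb, with overlapping intervals (9.02 to 13.1% and 8.47 to 10.1%). The intervals treat peaks as independent and cover counting error only. No test was run over peaks, since peaks of 1 pooled list are not replicates of a condition.

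**Figure D3:**
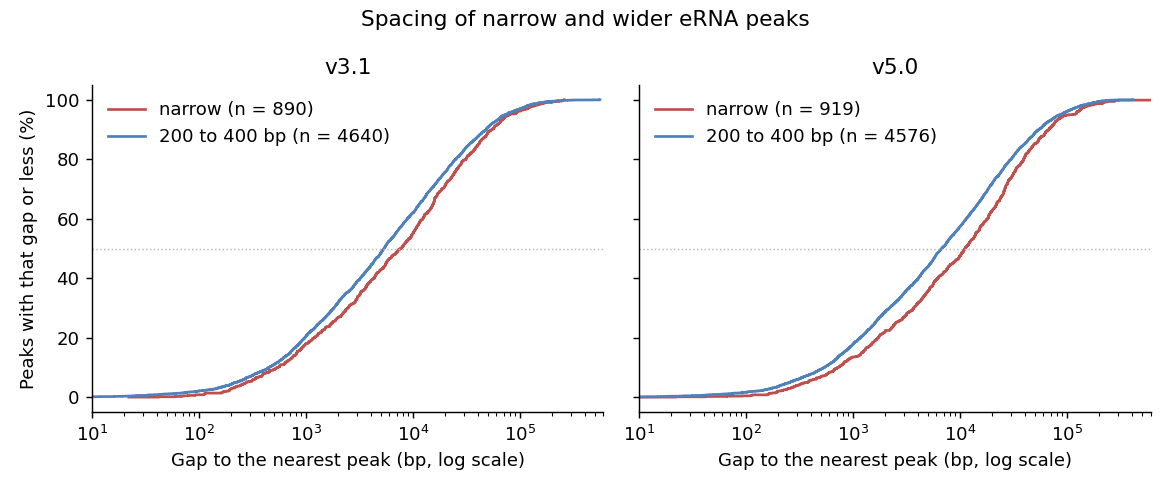
Cumulative percentage of peaks (y axis) with a gap to the nearest peak of the given size or less (x axis, bp, log scale) in the v3.1 list (left) and at the lifted positions in v5.0 (right), for narrow peaks (red) and peaks of 200 to 400 bp (blue). The dotted line marks the median, at 7625 and 5314 bp in v3.1 and at 11098 and 6706 bp in v5.0. Peaks alone on their scaffold are left out.

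The peaks of the v3.1 list lay on 2922 scaffolds, and those lifted singly to v5.0 on 107. The deposited v5.0 list gave a median gap of 11098 bp (9614 to 13050 bp) for 919 narrow peaks and 6706 bp (6143 to 7311 bp) for 4576 peaks of 200 to 400 bp, a ratio of 1.65. The v3.1 medians left out the 90 narrow peaks (9.18%) and 268 wider peaks (5.46%) that were alone on their scaffold. In v5.0 all 919 singly lifted narrow peaks and 4576 of 4578 wider peaks had a neighbor. The ratios of 1.43 in v3.1 and 1.65 in v5.0 thus rest on unlike sets of peaks. On the 21 v5.0 scaffolds with at least 200 singly lifted peaks in the score range, which carried 92.1% of the singly lifted narrow peaks, the median gap of narrow peaks was larger than that of the wider peaks on 18 scaffolds and smaller on 3. The ratio ran from 0.666 to 3.26 with a median of 1.72. On the scaffold of the *Sp-kirrelL* gene, the ratio was 1.30, with medians of 6593.5 and 5082 bp. Single v3.1 scaffolds showed less of this difference. Of the 543 scaffolds with at least 1 peak of each class, the median gap of narrow peaks was larger on 258, smaller on 237 and equal on 48, and of 43 scaffolds with at least 10 peaks and at least 3 of each class it was larger on 25 and smaller on 18. Grouped by the number of peaks on the v3.1 scaffold, the order was reversed at 5 to 9 peaks, with medians of 5166.5 bp for narrow peaks (3123 to 9507 bp) and 6228.5 bp for the wider ones (5406 to 7173 bp). Narrow peaks had the larger median at 2 to 4, 10 to 19, 20 to 39 and 40 to 97 peaks, and the intervals of the 2 classes overlapped in all 5 groups.

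Gaps were compared within classes of score, because narrow peaks had lower scores. In v3.1, at a score of 3, the median gap was 7842.5 bp for narrow peaks (5942 to 10242 bp) and 6116 bp for peaks of 200 to 400 bp (5427 to 7203 bp). At scores of 4 to 9 it was 7931.5 bp (5484 to 10232 bp) and 5494.5 bp (5079 to 6018 bp), and at 10 to 43 it was 4970.5 bp (2475 to 9383 bp, 127 narrow peaks) and 4049 bp (3340 to 4520 bp). The intervals of the 2 classes overlapped in all 3 score classes in v3.1. At the v5.0 positions, the median gap of narrow peaks was 10643 bp (8950 to 13394 bp), 11544 bp (8195 to 14511 bp) and 12172 bp (5102 to 21266 bp) from the lowest to the highest score class. That of the wider peaks was 8038 bp (7032 to 9267 bp), 6652.5 bp (6018 to 7416 bp) and 5110 bp (4319 to 5890 bp). In v5.0 the intervals of narrow and wider peaks overlapped at scores of 3 and of 10 to 43 and were apart at 4 to 9.

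Among the narrow peaks, the medians were higher for the 2 classes of at most 100 bp than for 101 to 150 bp, with intervals apart only for 51 to 100 bp in v5.0. The median gap in v3.1 was 9606 bp (4977 to 13210 bp) for the 135 peaks of at most 50 bp and 10034 bp (6843 to 11467 bp) for the 325 peaks of 51 to 100 bp. The 520 peaks of 101 to 150 bp had a median gap of 6241 bp (5045 to 8002 bp), close to the 5829 bp (4456 to 7283 bp) of the peaks of 151 to 199 bp, which lie just outside the limit. From 200 to 400 bp, the medians of 4 width classes lay between 5088 and 5714 bp. Beyond 400 bp they were lower, 3566 bp at 401 to 500 bp and 1996.5 bp above 500 bp. The v5.0 positions gave medians of 13394, 15183 and 7773 bp for the 3 classes of narrow peaks and 8470 bp for 151 to 199 bp. The intervals of the classes of 51 to 100 bp and 101 to 150 bp overlapped in v3.1 and were apart in v5.0 (12172 to 20852 bp and 5973 to 10242 bp), while those of at most 50 bp and 101 to 150 bp overlapped in both (7799 to 19445 bp for the narrowest class in v5.0). Spacing thus showed no step at 150 bp in either assembly.

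**Figure D4:**
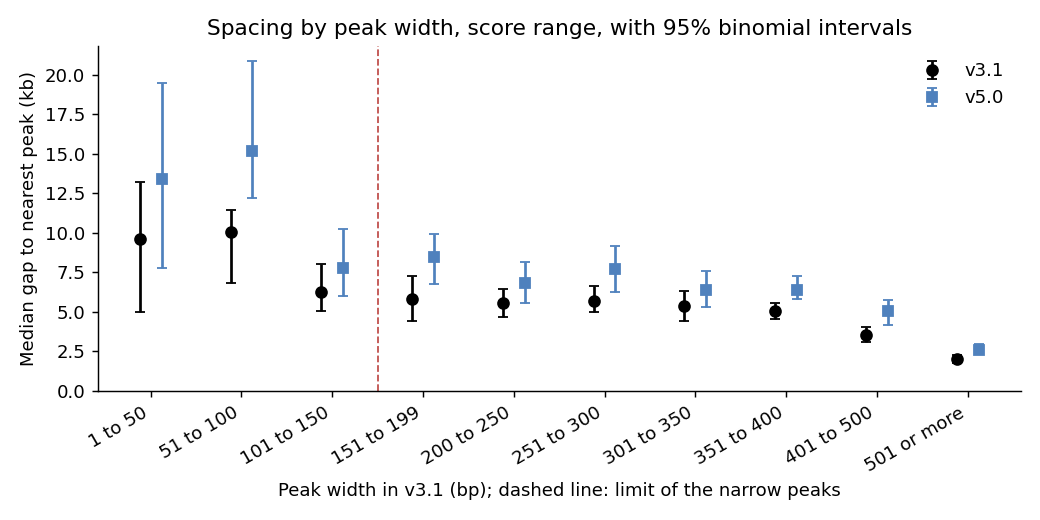
Median gap to the nearest eRNA peak (y axis, kb) by class of peak width (x axis, bp) for peaks in the score range, at v3.1 (circles) and v5.0 positions (squares), with 95% binomial intervals of the median. In v3.1 the medians are 9606 bp for widths of at most 50 bp, 6241 bp at 101 to 150 bp, and 1996.5 bp above 500 bp.

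The peaks nearest to narrow peaks were much like those nearest to wider peaks in width and score. The nearest neighbor measured at most 150 bp for 113 of 890 narrow peaks (12.7%, 10.7 to 15.0%) and for 14.3% of the peaks of 200 to 400 bp (13.3 to 15.3%), and 14.0% of all peaks with a neighbor had one of that width. The median width of the nearest neighbor was 302.5 bp for narrow peaks (290 to 315 bp) and 316 bp for the wider ones (310 to 321 bp), and its median score was 3 for both. The neighbor had a score of 2 for 45.1% of narrow peaks (41.8 to 48.3%) and 43.3% of the wider peaks (41.9 to 44.7%), and a score of 44 or more for 4.94% (3.70 to 6.57%) and 5.09% (4.49 to 5.76%). In the 3 shares and in the median width of the neighbor the intervals of the 2 classes overlapped, and no interval was computed for its median score.

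The nearest peak was itself one of the 980 narrow peaks for 40 of 890 narrow peaks (4.49%, 3.32 to 6.06%). This share was 5.50% for the wider peaks (4.88 to 6.19%) and 4.99% for all peaks with a neighbor. The intervals of narrow and wider peaks overlapped. On scaffolds with several narrow peaks, 240 pairs of successive narrow peaks lay a median of 134914 bp apart, 28 of them within 10 kb and 7 within 1 kb. The closest pair was Scaffold453:97473-97608 (136 bp, score 3) and Scaffold453:97773-97919 (score 6), with 164 bp between them. The next pairs were Scaffold682:8379-8414 (36 bp) and 8735-8825 (91 bp), 320 bp apart, and Scaffold1671:91446-91569 (124 bp) and 92025-92146 (122 bp), 455 bp apart, each of these 4 peaks with a score of 3. On Scaffold745, 461314-461383 (70 bp) and 462012-462037 (26 bp) were 628 bp apart, and on Scaffold1502, 136862-136921 (60 bp, score 21) and 137743-137856 (114 bp, score 4) were 821 bp apart. No other peak lay between the peaks of these 5 pairs.

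Narrow peaks were spread over 740 scaffolds of the v3.1 assembly, of the 2922 scaffolds with any peak. Most of these scaffolds carried a single narrow peak (572), while 118 carried 2, 38 carried 3 and 12 carried 4 to 7. Scaffold95 held the most, with 7 narrow peaks among its 15 peaks in the score range, and Scaffold356, Scaffold25 and Scaffold1063 held 6 each. The peaks of 200 to 400 bp lay on 1755 scaffolds, with up to 30 on a single scaffold. Of the 980 narrow peaks, 772 (78.8%) shared their scaffold with at least 1 peak of 200 to 400 bp, and so did 84.4% of the 12188 peaks in neither class. In the other direction, 2355 of the 4908 wider peaks (48.0%) shared a scaffold with a narrow peak. The 543 scaffolds that held both classes were 73.4% of those with a narrow peak and 30.9% of those with a wider one. These 2 shares divide the same 543 scaffolds by 740 and by 1755, so their difference follows from the sizes of the classes. Of the 2506 scaffolds with a peak in neither class, 57.1% held a peak of 200 to 400 bp. The 48.0% has no matching share here for peaks in neither class. The 20 scaffolds with the most peaks, from 43 to 97 each, held 42 narrow peaks and 287 peaks of 200 to 400 bp. Narrow peaks were 0 to 21.7% of the score range on these scaffolds and 7.32% over all of them.

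A larger share of narrow than of wider peaks was alone on its scaffold. This held for 90 of 980 narrow peaks (9.18%, 7.53 to 11.2%), against 5.46% of the peaks of 200 to 400 bp (4.86 to 6.13%). In the score classes, the share of lone peaks was 7.88% (5.64 to 10.9%) and 5.62% (4.55 to 6.91%) at a score of 3, 9.17% (6.83 to 12.2%) and 5.29% (4.46 to 6.26%) at 4 to 9, and 13.4% (8.53 to 20.4%) and 5.64% (4.39 to 7.22%) at 10 to 43. The intervals overlapped at a score of 3 and were apart in the other 2 classes. Counted the other way, narrow peaks were 18.9% (15.6 to 22.6%) of the peaks in the score range on the 477 scaffolds whose lone peak fell in the score range, of 994 scaffolds with a lone peak, 13.6% (11.8 to 15.8%) on scaffolds with 2 to 4 peaks and 10.2% (8.80 to 11.7%) on those with 5 to 9. With 10 to 19 and with 20 to 39 peaks it was 9.91% and 9.92%, and with 40 to 97 peaks 7.82% (6.03 to 10.1%). Scaffold lengths were not used here. A start within 5 kb of the first base of the scaffold was found for 3.98% of narrow peaks (2.92 to 5.39%) and 2.49% of the wider peaks (2.09 to 2.96%), and the part of scaffold length in the share of lone peaks was not tested.

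**Figure D5:**
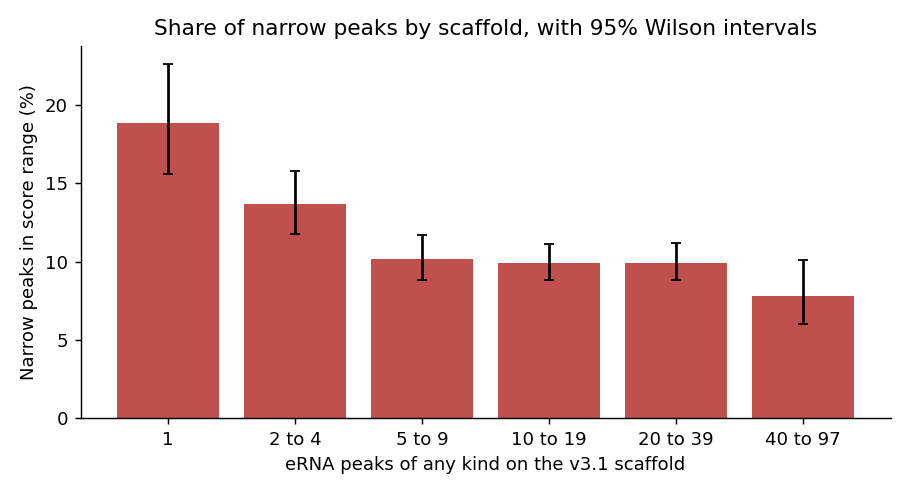
Percentage of the peaks in the score range that were narrow (y axis), by the number of eRNA peaks of any kind on the v3.1 scaffold (x axis), with 95% Wilson intervals as error bars. The share is 18.9% on scaffolds with a lone peak and between 7.82% and 13.6% on scaffolds with more.

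Each v5.0 scaffold with many peaks held narrow peaks. Singly lifted narrow peaks fell on 59 scaffolds, and the 21 with at least 200 peaks in the score range carried 24 to 87 narrow peaks each. Narrow peaks were 6.82 to 15.1% of the score range on these 21 scaffolds, and the Wilson interval of 18 of them included the share over all lifted peaks, 10.7%. The *Sp-kirrelL* scaffold carried 30 narrow peaks of 419 in the score range (7.16%, 5.06 to 10.0%). In v3.1, the gene lies on Scaffold8, which held 3 narrow peaks among 14 peaks in the score range. They were 57856-57904 (49 bp, score 14), 64072-64182 (111 bp, score 3) and 1310484-1310605 (122 bp, score 7). None was close to the gene, since they lay 501.8, 495.5 and 735.7 kb from the nearest end of the cis-regulatory elements A–I around it.

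The lift-over to v5.0, which was not used in choosing the peaks either, found narrow and wider peaks at shares whose intervals overlapped. It gave a position for 942 of the 980 narrow peaks (96.1%, 94.7 to 97.2%) and for 96.6% of the peaks of 200 to 400 bp (96.1 to 97.1%). Of the narrow peaks, 9 (0.918%) were placed more than once and 14 (1.43%) were joined with another peak in a single v5.0 interval. These shares were 0.795% and 2.53% for the wider peaks. The width was unchanged for 700 of 919 singly lifted narrow peaks (76.2%, 73.3 to 78.8%) and for 60.6% of the wider peaks (59.1 to 62.0%). In v5.0, 92 narrow peaks (10.0%) became wider and 127 (13.8%) narrower, against 15.7% and 23.7% of the peaks of 200 to 400 bp. The classes differ in length, and per kb of v3.1 sequence the order was the opposite, with 2.45 changed intervals for narrow peaks and 1.26 for the wider ones. Among the narrow peaks the rate was 4.95 at widths of at most 50 bp, 3.11 at 51 to 100 bp and 2.03 at 101 to 150 bp. It was lower in each wider class, from 1.71 at 151 to 199 bp to 0.735 above 500 bp. A changed interval was counted once whatever its length, so the rate itself depends on width. Only 24 of the singly lifted narrow peaks exceeded 150 bp in v5.0, and the size of the change had a median of 6 bp among those that changed. Some changes were large, with a range from -147 to 2103 bp, and 8 singly lifted narrow peaks exceeded 400 bp in v5.0. Among the high-scoring peaks, the 75 bp of Scaffold1689:184062-184136 became 5 bp and the 65 bp of Scaffold848:130598-130662 became 100 bp. Of the 11 narrow peaks with a score of 30 or more, 10 were found in v5.0, 6 of them with the same width, and Scaffold9:72262-72399 was not found.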

How the data were processed

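CAGE libraries of 9 stages were sequenced by the authors to a stated depth of over 100000000 reads each, with 60000000 to 80000000 uniquely mapped. Reads were checked with FastQC, mapped to the *S. purpuratus* v3.1 genome with BWA and, below a mapping quality of 20, with HISAT2 (versions not given in the sources used here). Start sites were clustered with DPI without decomposition, clusters with at least 2 tags were kept and bidirectional enhancers were identified with the FANTOM5 program. The deposited lists (v3.1, and lifted to v5.0 by the authors) pool all libraries. They give positions in bp and the score that the authors deposited with each peak, whose definition is not given in the sources used here. How many reads lie behind a peak is unknown.

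Width was the end minus the start, and positions are printed counted from 1. Peaks were matched between lists by name, joint names being read as their parts. Widths and gaps in v5.0 are those of peaks placed once and not joined, while the nearest neighbor could be any interval of the v5.0 list. Shares carry 95% Wilson intervals and medians 95% binomial order-statistic intervals. The functions were tested on simulated lists. The members, comparison classes and measures were chosen with earlier results of these data known. The gaps by width class, by number of peaks per scaffold, by v5.0 scaffold (with its minimum of 200 peaks) and within single v3.1 scaffolds, the shared scaffolds and the width changes per kb were added after the data were seen. Singly named peaks are the 10 highest-scoring (and 1 tied with the last), the 5 narrowest, the 5 widest (ties by score), the 5 closest pairs and those on Scaffold8. Alternatives covered the limits of width and score, the scaffolds used, the neighbors counted and the assembly. Sequences and nearest genes were not analysed here, since no genome was used and gene positions could not be tied to scaffolds. Python 3.11.15, numpy 2.4.6, pandas 2.3.3, scipy 1.17.1 and matplotlib 3.10.9 were used.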

Additional observations from a re-analysis of the deposited data

How the results depend on the processing

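Of 65 alternatives over 8 results, 39 left the value within its interval, or a count within 1.5 times, 20 moved it and 6 reversed the order of narrow and wider peaks. For the share found in v5.0, scores of 10 or more and scores of 10 to 43 are the same peaks. Their reversal is counted under both settings. The number of narrow peaks was 1671 with widths up to 200 bp, 2669 with no lower score limit, 127 with scores of 10 or more and 568 on scaffolds with at least 10 peaks, and the scaffolds carrying them were 1375, 114 and 358 under the last 3. These counts follow from the limits themselves. The median gap of 7625 bp was 4970.5 bp with scores of 10 or more, 5999.5 bp on scaffolds with at least 10 peaks, 14930 bp when neighbors had to score 3 or more and 11098 bp in v5.0. In the 10 alternatives run, it was larger for narrow than for wider peaks. The share within 1 kb was 21.3%, 20.4%, 11.8% and 13.6% in the same 4 settings, below that of wider peaks in each. The intervals of the 2 classes overlapped except in v5.0 (11.5 to 16.0% and 17.0 to 19.2%). Lone peaks were 7.38% with no lower score limit and 13.4% with scores of 10 or more, against 5.66% and 5.64% of the wider peaks.

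The share with a narrow nearest neighbor was 22.5% with widths up to 200 bp and 10.6% on scaffolds with at least 10 peaks. In the first of these settings a neighbor of up to 200 bp also counted as narrow, and the share for wider peaks was 23.0%. The order reversed at scores of 10 or more (16.4% against 13.7%) and with neighbors of score 3 or more (9.95% against 9.87%). The share found in v5.0 reversed at scores of 10 or more (96.1%), on scaffolds with at least 10 peaks (97.0%) and at a score of 3 (97.0%), so that these 2 measures give no order. Allowing 5 bp, the width was unchanged for 87.3% of singly lifted narrow peaks and 78.2% of the wider ones. Leaving out neighbors below a score of 3 can only keep, lengthen or remove the gap of a peak. The cause of the other moves was not tested. No paired analysis was possible because the lists pool the libraries, and no library could be left out.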

Other observations

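A width of 148 bp was the most common among the narrow peaks, with 25 peaks on 25 different scaffolds. The next most common width was 119 bp, with 17 peaks. The other widths from 141 to 150 bp held 7 to 13 peaks each, and with peaks of all scores 148 bp held 43 peaks and the others 20 to 33. A width of 153 bp, just outside the limit, held 17 peaks in the score range and 41 with all scores. These widths were picked after their counts were seen, among 150 possible widths, and no test was run on them.

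The gap of the wider peaks was smaller in each higher score class at the v5.0 positions, from 8038 to 5110 bp, while the medians of narrow peaks were 10643, 11544 and 12172 bp. The interval of the last value, 5102 to 21266 bp, is wide, since it rests on 127 narrow peaks before lift-over, and the difference between the 2 trends was not tested. In v3.1, where lone peaks have no gap, both classes had their smallest median at scores of 10 to 43 (4970.5 and 4049 bp). The contrast was thus seen at the v5.0 positions only.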
